A study of Mus musculus with 8 samples.

Results

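The collagen genes examined here are the 44 genes whose symbols have the form Col, a number, a and a number, among the 55367 gene symbols measured in 2 single-cell RNA libraries of mouse hippocampus. They were followed through 5 classes of cells, called here fibroblasts, pericytes, endothelial cells, precursors (oligodendrocyte precursor cells) and astrocytes. The DTRneg library came from Foxp3-DTR- mice and the DTRpos library from Foxp3-DTR+ mice. All mice received diphtheria toxin, and each library holds the pooled cells of 2 mice. DTR is the diphtheria toxin receptor, which in DTR+ animals is placed under the Foxp3 gene of regulatory T cells, so that the toxin removes those cells. The controls were littermates without the receptor, and the study asked what changes in the hippocampal niche once regulatory T cells have been depleted. Live cells negative for CD45 and Thy1 were sorted, which takes out leukocytes and most neurons. The sort also takes out cells of any other class that carry either protein, so each class holds only the cells that passed it. Age and sex are not given in the sources used here. With 1 library per genotype there is no replicate, no test and no p-value. Intervals are exact 95% intervals that cover counting error only, and animal, pool, library and genotype cannot be told apart.

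Collagens are secreted proteins in which 3 chains wind into a triple helix. Fibrillar collagens such as types I, III and V build the tensile fibres of connective tissue, type IV forms the sheet-like network of basement membranes, and further types decorate fibrils, form beaded filaments or stay in the cell membrane. In the brain, collagen is found mainly in the meninges and around blood vessels, where fibroblasts lie in the perivascular space, pericytes sit on the capillary wall inside the basement membrane and endothelial cells line the lumen. Glia add other components to the parenchymal side of that membrane.

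Promoter sequences are printed for 4 members as examples of how the genes were spread over the classes, chosen after their values were seen: Col1a2 and Col3a1, present in fibroblasts and pericytes, Col6a1, present in fibroblasts, and Col11a1, highest in precursors. Each stretch is RefSeq sequence of build GRCm38.p6 upstream of the start annotated by RefSeq, 5′ to 3′ on the gene's own strand, without exon bases. GENCODE mouse release M21 places the Col1a2 start further upstream, at 4504814, so the Col1a2 stretch lies within that gene's span there. Capitals mark motifs searched on both strands. The TATA box was spelled TATAAA, the CCAAT box was searched with those 5 letters and appears as ATTGG when it lies on the opposite strand, and the GC box was spelled GGGCGG. A reversed CCAAT box and a GC box can share bases where they meet.
Col1a2, chr6:4505370-4505492, plus strand: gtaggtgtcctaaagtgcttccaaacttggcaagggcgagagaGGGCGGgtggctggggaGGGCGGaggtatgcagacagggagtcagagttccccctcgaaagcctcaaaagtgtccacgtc
Col3a1, chr1:45311288-45311537, plus strand: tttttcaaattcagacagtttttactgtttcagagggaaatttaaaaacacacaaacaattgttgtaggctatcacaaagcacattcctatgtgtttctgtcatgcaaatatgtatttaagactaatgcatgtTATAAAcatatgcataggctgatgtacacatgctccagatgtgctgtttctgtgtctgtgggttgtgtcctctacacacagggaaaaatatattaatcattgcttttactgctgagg
Col6a1, chr10:76726169-76726294, minus strand: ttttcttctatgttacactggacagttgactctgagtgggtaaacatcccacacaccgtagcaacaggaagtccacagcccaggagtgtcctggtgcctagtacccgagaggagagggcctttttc
Col11a1, chr3:114030290-114030539, plus strand: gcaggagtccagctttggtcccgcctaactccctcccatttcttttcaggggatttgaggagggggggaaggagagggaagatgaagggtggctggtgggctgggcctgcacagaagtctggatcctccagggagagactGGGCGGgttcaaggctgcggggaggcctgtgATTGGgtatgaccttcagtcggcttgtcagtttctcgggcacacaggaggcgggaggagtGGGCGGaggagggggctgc

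Of the 44 genes, 35 matched the promoter table, with 38 windows from 250 bases before to 50 bases after a start. TATAAA was found in 5 of the 38 collagen windows (Col3a1, Col10a1, Col11a2, Col13a1 and Col17a1) and in 13.6% of all 32851 windows. CCAAT was found in 13 of 38 collagen windows and in 37.4% of all windows. GGGCGG was found in 23 of 38 collagen windows and in 35.7% of all windows. The Col1a2 window also held CCAAT, outside the bases printed, and the Col6a1 window held none of the 3 motifs. These matches describe letters in a window and were not tested as binding sites.

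Several members are neighbours in the genome. Col4a1 (chromosome 8, 11198423 to 11312826, minus strand) and Col4a2 (11312805 to 11449287, plus strand) point away from each other. Their first 22 bases overlap. Col4a6 (minus strand) and Col4a5 (plus strand) also point away from each other, on chromosome X, but do not overlap. Col3a1 and Col5a2 lie on chromosome 1 (45311538 to 45349706 and 45374321 to 45503282), and Col6a1 and Col6a2 on chromosome 10 (76708792 to 76726168 and 76595762 to 76623630). These coordinates are those of GENCODE mouse release M21 on GRCm38.

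The DTRneg library gave 6864 cells (53484704 UMIs in 8220 barcodes) and the DTRpos library 5691 cells (35814655 UMIs in 6548 barcodes). A UMI (unique molecular identifier) stands for 1 captured RNA molecule. The labels call the sorted cells neurons and glia, and vascular cells were a minority: 63 and 54 fibroblasts (0.918% and 0.949% of cells), 191 and 158 pericytes (2.78% and 2.78%) and 517 and 376 endothelial cells. The endothelial share was 7.53% (interval 6.92 to 8.18) in DTRneg and 6.61% (5.98 to 7.28) in DTRpos. The sort gate and the digestion can set these shares. There were 690 and 893 precursors and 946 and 1096 astrocytes. Of the barcodes, 15 occurred in both libraries. No cluster of smooth muscle cells was found. Levels are given as CPM, the UMIs of a gene scaled to 1000000 UMIs of all cells of the class in that library. The protocol counts 1 tag at the 3′ end of a molecule, so CPM values of different genes can be set side by side without a length correction, although capture can differ between genes. Depth differed: fibroblasts had medians of 2874 and 2372 UMIs per cell, pericytes 1984 and 1529, endothelial cells 1975 and 1605, precursors 5254 and 4358, and astrocytes 3790 and 3152.5.

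The classes were named from lists that hold the markers below. The marker levels therefore describe the classes and are no check of their names. Dcn, a proteoglycan of fibroblasts, stood at 5230 CPM in DTRneg and 4757 in DTRpos fibroblasts, against 46.6 and 54.2 in pericytes. Lum was at 688 and 608 CPM in fibroblasts and at 0 in pericytes of both libraries. Rgs5, a pericyte regulator of G-protein signalling, was at 5026 and 4236 CPM in pericytes and at 0 in fibroblasts. Cldn5, the tight-junction claudin of brain endothelium, was at 4167 and 5492 CPM in endothelial cells and at 0 in fibroblasts. Of the 9 endothelial markers, 6 in DTRneg and 4 in DTRpos fibroblasts had a UMI, at a sum of 516 and 465 CPM. In pericytes 7, with Cldn5, had one in DTRneg and 4, without Cldn5, in DTRpos, at 471 and 488 CPM. The sum in endothelial cells was 19390 and 23048 CPM. Pdgfra was at 1198 and 1194 CPM in precursors but also at 657 and 472 CPM in fibroblasts, and Aqp4 at 886.5 and 880 CPM in astrocytes. Vtn, in the pericyte marker list, was at 24376 and 28473 CPM in pericytes and also at 11098 and 10150 CPM in fibroblasts.

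Per UMI, collagen RNA was highest in fibroblasts, followed by pericytes. All members together made up 5370.4 CPM (5069 to 5685) of fibroblast RNA in DTRneg and 5823 CPM (5439 to 6228) in DTRpos. Pericytes had 1791 CPM (1664 to 1926) and 1781 CPM (1622 to 1951). Endothelial cells had 480.04 CPM (442 to 521) and 550.3 CPM (497 to 607), precursors 385 (366 to 406) and 371 (353 to 390), and astrocytes 111 (101 to 123) and 121 (110.2 to 133). Mature oligodendrocytes, the most numerous class, had 49.4 and 49.04 CPM. The order of the 5 classes was the same in both libraries and none of their intervals overlapped within a library. Fibroblasts, pericytes and endothelial cells were 11.2% of DTRneg and 10.3% of DTRpos cells and held 34.7% and 32.9% of all collagen UMIs. Precursors held 20.05% and 28.94%, and mature oligodendrocytes 23.35% and 20.43%.

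The highest class was found for each of the 41 members with a UMI in any of the 5 classes. Fibroblasts were highest for 23 of them (56.1%), against 12.3% of all 24868 genes with a UMI in these classes. Pericytes were highest for 7 members (17.1%, against 14.1% of all genes) and endothelial cells for 2 (4.88%, against 15.9%). Precursors were highest for 6 members (14.6%, against 37.9% of all genes) and astrocytes for 3 (7.32%, against 19.8%). The share for fibroblasts thus lay well above that for all genes, and those for the other 4 classes lay near or below it.

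**Figure D1:**
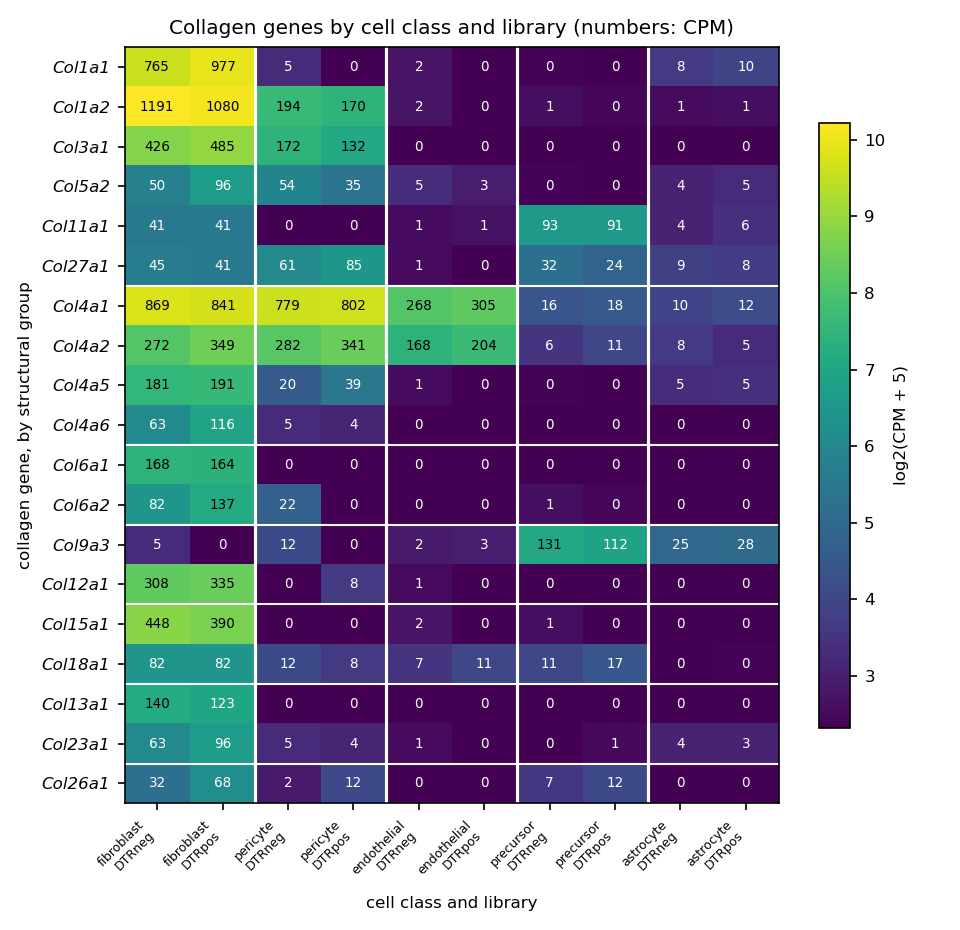
Levels of the 19 collagen genes that reached a mean of 50 CPM in at least 1 class. Rows are genes, ordered by structural group, columns are the 5 classes in both libraries, numbers are CPM and colour is log2(CPM + 5). The upper left block shows fibroblast levels of up to 1191 CPM (Col1a2), and Col4a1 and Col4a2 are the 2 rows that stay bright across fibroblasts, pericytes and endothelial cells.

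Values are given for the 19 members whose mean over both libraries reached 50 CPM in 1 or more of the classes. The lowest of them were Col26a1 at a highest mean of 50.02 CPM and Col5a2 at 72.7 CPM. Just outside were Col8a1 at 43.9 CPM and Col4a3 and Col5a3, each at 34.1 CPM. Of the other 25 members, 2 (Col6a5 and Col19a1) had no UMI in either library and 7 had fewer than 20 UMIs in both libraries together.

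Type I and type III chains, the main fibrillar collagens, marked fibroblasts. Col1a1, which encodes the alpha1 chain of type I, was at 765 CPM (654 to 890) in DTRneg and 977 CPM (824 to 1151) in DTRpos fibroblasts. Col1a2, the alpha2 chain, was at 1191 CPM (1051 to 1344) and 1080 CPM (918 to 1262), the highest level of any collagen in any of the 5 classes. Col3a1, which forms type III homotrimers that often share a fibril with type I, was at 426 CPM (344 to 521) and 485 CPM (379 to 612). The intervals of the libraries overlapped for all 3 genes. Type I chains were found in most fibroblasts: 79.4% and 72.2% of cells had a Col1a1 UMI and 82.5% and 81.5% a Col1a2 UMI. In mature oligodendrocytes, at medians of 7644 and 6317.5 UMIs per cell, 0.173% and 0.0815% of cells had a Col1a2 UMI. With fibroblasts thinned to 2000 UMIs per cell, which kept 48 of 63 and 32 of 54 cells, the Col1a2 share was 87.5% (74.7 to 95.3) and 78.1% (60.03 to 90.7). The type I protein holds 2 alpha1 chains and 1 alpha2 chain. In RNA there were 0.643 Col1a1 UMIs per Col1a2 UMI (0.526 to 0.782) in DTRneg and 0.905 (0.717 to 1.14) in DTRpos. Capture can differ between genes, so these UMI ratios do not give the proportion of the chains.

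Pericytes carried one type I chain almost without the other. Col1a2 was at 194 CPM (153 to 241) in DTRneg and 170.4 CPM (124 to 229) in DTRpos pericytes, while Col1a1 had 2 UMIs in DTRneg and none in DTRpos. The Col1a2 level was 16.3% and 15.8% of the fibroblast level, whereas the Col1a1 level was 0.641% and 0, and that of Dcn 0.89% and 1.14%. A share of 29.8% of DTRneg and 22.2% of DTRpos pericytes had a Col1a2 UMI. Of the 10 fibroblast markers, 8 in DTRneg and 7 in DTRpos pericytes had a UMI, with a summed level of 2144 and 2249.5 CPM, against 32349 and 33511 CPM in fibroblasts. Without the pericytes that held a Dcn or Lum UMI, a split chosen after seeing the data, Col1a2 was at 199 and 179 CPM. The split itself set Dcn and Lum to 0 in these cells and did not set the other fibroblast markers. Free fibroblast RNA as a source of the Col1a2 UMIs was not tested.

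Col3a1 was the second fibrillar gene of pericytes, at 172 CPM (134 to 217) and 132 CPM (91.2 to 184), or 40.3% and 27.1% of the fibroblast level. It was concentrated in few cells: 18.3% and 16.5% of pericytes had a Col3a1 UMI, and the 5 highest cells held 41.4% and 32.4% of its UMIs. Cells were split by the UMIs of 6 smooth muscle markers (Acta2, Myh11, Tagln, Cnn1, Mustn1 and Map3k7cl), a split made after seeing the data. Myl9, a myosin light chain gene of the same marker list, was left out of the split and was found in 99.5% of DTRneg and 93.04% of DTRpos pericytes. Col3a1 was at 570.5 CPM (395 to 797) and 656 CPM (339 to 1146) in the 23 and 10 cells with 2 or more such UMIs, and at 79.1 CPM (50.7 to 118) and 86.8 CPM (52.3 to 135.5) in the 144 and 136 cells with none. Of the 70 and 34 Col3a1 UMIs of pericytes, 34 and 12 lay in the cells with 2 or more, and 24 and 19 in the cells with none. Its level was thus higher in cells with contractile genes, but these cells did not hold all of it. The mean of the libraries was 82.9 CPM without any cell that held a contractile-gene UMI. Over all pericytes, 6 of the 7 markers in the list in DTRneg and 5 in DTRpos had a UMI, and their summed level was 3396.5 and 2861 CPM, of which Myl9 gave 2549 and 2637 CPM. Depth differed between the split cells, with medians of 2568 and 1963.5 UMIs against 1978 and 1483.5, and cells with more UMIs are more likely to show a marker. Acta2, the smooth muscle actin gene, was itself at 441 CPM in DTRneg and 69.7 CPM in DTRpos pericytes, and its part in the library values of Col3a1 was not tested.

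**Figure D2:**
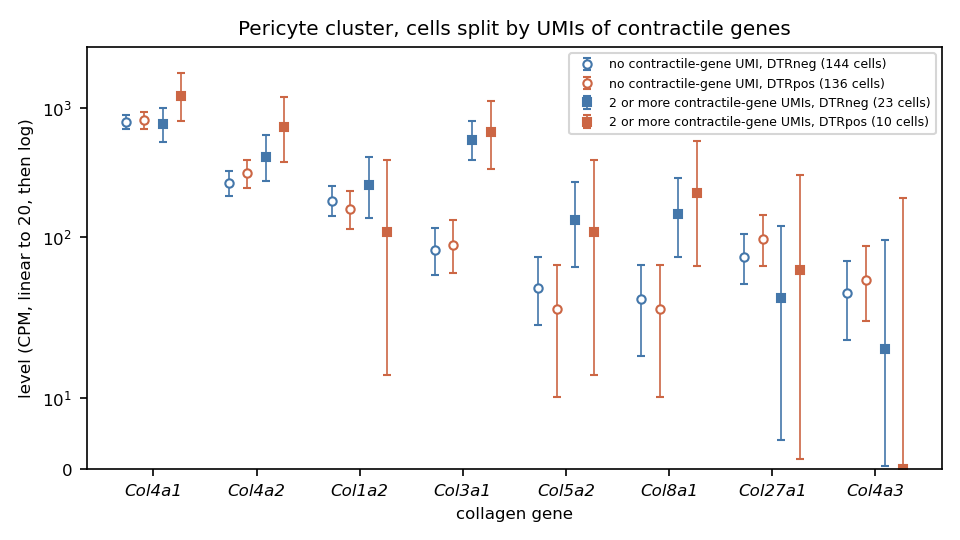
Levels of 8 collagen genes in pericytes with no contractile-gene UMI (open circles) and with 2 or more (filled squares), by library, with exact 95% counting intervals. The axis is linear up to 20 CPM and logarithmic above. Col3a1 separates the kinds of cell in both libraries, at 79.1 and 86.8 against 570.5 and 656 CPM, while the Col1a2 intervals overlap.

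The same split moved the network collagen Col8a1, a short-chain type found in vessel walls. It was at 151 CPM (69.05 to 287) and 219 CPM (59.6 to 560) in the cells with 2 or more contractile-gene UMIs, and at 33.0 CPM (15.8 to 60.6) and 27.4 CPM (10.1 to 59.7) in those with none. The intervals of DTRneg did not overlap, those of DTRpos overlapped, and the DTRpos value rests on 4 UMIs. Over all pericytes Col8a1 was at 49.01 and 38.7 CPM. Col4a1 was at 755 CPM (551 to 1010) against 784 CPM (688 to 891) in DTRneg and at 1257 CPM (797 to 1886) against 809 CPM (694 to 937) in DTRpos. Col4a2 was at 419.5 CPM (271.5 to 619) against 260.4 CPM (206 to 324.5) in DTRneg and at 710.5 CPM (378 to 1215) against 311 CPM (241 to 394) in DTRpos. The intervals of both type IV chains overlapped in each library. The Col1a2 values were 252 and 109 CPM against 191 and 164.5 CPM.

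The minor fibrillar chains had lower levels and wide intervals. Col5a2, a chain of the type V collagen that sits inside type I fibrils, was at 49.8 CPM (24.9 to 89.1) and 95.7 CPM (52.3 to 160.5) in fibroblasts and 53.9 CPM (33.8 to 81.6) and 34.9 CPM (15.9 to 66.2) in pericytes. The fibroblast and pericyte intervals overlapped in both libraries. Col5a1, its usual partner, had 7 UMIs in each whole library. Col27a1, a fibrillar gene known from cartilage, was highest in pericytes, at 61.3 CPM (39.6 to 90.4) and 85.2 CPM (53.4 to 129), and was also at 45.3 and 41.01 CPM in fibroblasts and 31.7 and 23.5 CPM in precursors. In endothelial cells it had 1 UMI in DTRneg and none in DTRpos.

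Type IV chains, the basement membrane network, were common to all 3 vascular classes. Col4a1 was at 869 CPM (751 to 1001) and 841 CPM (699 to 1003) in fibroblasts, 779 CPM (696 to 870) and 801.5 CPM (696 to 918) in pericytes, and 268 CPM (240.1 to 299) and 305 CPM (266 to 349) in endothelial cells. The intervals of fibroblasts and pericytes overlapped, and endothelial cells lay below both in each library. Of single cells, 84.1% and 59.3% of fibroblasts, 73.8% and 65.8% of pericytes and 43.3% and 37.5% of endothelial cells had a Col4a1 UMI. At a common depth of 2000 UMIs the shares were 68.7% (53.7 to 81.3) and 71.9% (53.2 to 86.2) in fibroblasts, 75.3% (65.2 to 83.6) and 87.1% (70.2 to 96.4) in pericytes, and 37.01% (31.1 to 43.3) and 43.5% (34.9 to 52.5) in endothelial cells. Thinning kept 93 of 191 DTRneg and 31 of 158 DTRpos pericytes.

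Col4a2, whose chain joins 2 alpha1 chains in the most common type IV trimer, was at 272 CPM (207 to 350) and 349 CPM (260 to 458) in fibroblasts. In pericytes it was at 282 CPM (233 to 338) and 341 CPM (273 to 420), and in endothelial cells at 168.0 CPM (146 to 193) and 204 CPM (173 to 240). The fibroblast and pericyte intervals overlapped and endothelial cells lay below both in each library. Endothelial cells had 30.9% and 36.3% of the fibroblast level of Col4a1 but 61.8% and 58.6% of that of Col4a2. The ratio of the chains differed accordingly between classes. There were 3.2 Col4a1 UMIs per Col4a2 UMI in DTRneg (2.38 to 4.35) and 2.41 in DTRpos fibroblasts (1.73 to 3.41), and 2.77 (2.23 to 3.45) and 2.35 (1.82 to 3.05) in pericytes. In endothelial cells the ratio was 1.60 (1.34 to 1.91) and 1.49 (1.21 to 1.85). The DTRneg intervals of fibroblasts and pericytes lay above that of endothelial cells, and those of DTRpos overlapped it. Both chains were found together in 32 of 63 and 21 of 54 fibroblasts, 55 of 191 and 44 of 158 pericytes and 83 of 517 and 51 of 376 endothelial cells. A Col4a2 UMI was found in 60.4% and 65.6% of the fibroblasts with a Col4a1 UMI and in 10.0% and 22.7% of those without. In pericytes these shares were 39.01% and 42.3% against 36.0% and 24.1%. In DTRneg a Col4a2 UMI was thus little more frequent in pericytes with a Col4a1 UMI than in those without. Cells with more UMIs have more chances to show both genes.

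**Figure D3:**
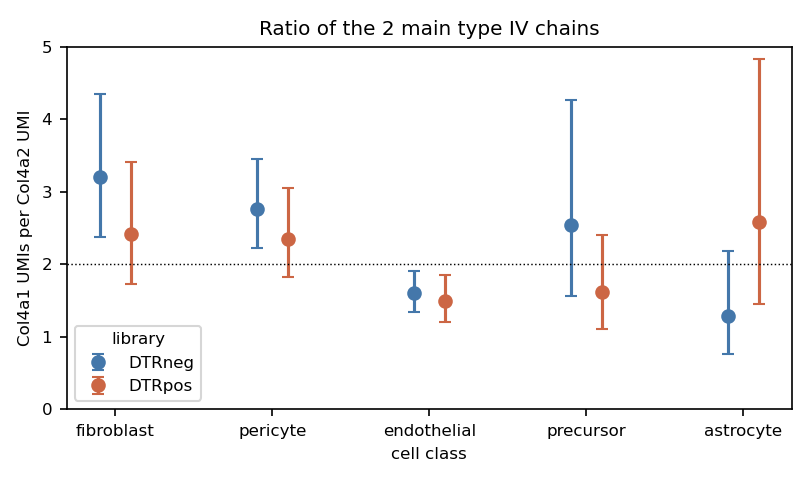
Col4a1 UMIs per Col4a2 UMI in each class, by library, with exact 95% counting intervals. The dotted line at 2 is the ratio of alpha1 to alpha2 chains in the protein trimer, while UMI ratios also depend on the capture of each gene. Fibroblasts and pericytes lie above the line in both libraries (3.2, 2.41, 2.77 and 2.35) and endothelial cells below it (1.60 and 1.49), and the DTRpos intervals of fibroblasts and pericytes hold 2.

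The rarer type IV chains were split between classes. Col4a5, at 181 CPM (129 to 247) and 191 CPM (127 to 277) in fibroblasts, and its genomic neighbour Col4a6, at 63.4 CPM (34.7 to 106) and 116 CPM (67.7 to 186), encode chains that assemble into one trimer. In pericytes Col4a5 was at 19.6 CPM (8.46 to 38.6) and 38.7 CPM (18.6 to 71.2) and Col4a6 at 4.9 and 3.87 CPM, 2 UMIs and 1 UMI. Col4a3 and Col4a4, the other neighbouring pair, were highest in pericytes, at 29.4 and 38.7 CPM for Col4a3 and 24.5 and 7.74 CPM for Col4a4, with 12, 10, 10 and 2 UMIs. Endothelial cells had 1 Col4a5 UMI in DTRneg and none in DTRpos. Within the type IV family, Col4a1 and Col4a2 were thus the chains shared by the vascular wall, and Col4a5 with Col4a6 were higher in fibroblasts than in the other 4 classes.

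Type VI chains, which form beaded filaments next to cell surfaces, were together highest in fibroblasts among the 5 classes. Their sum was 272 and 308 CPM in fibroblasts, against 24.5 CPM in DTRneg and 0 in DTRpos pericytes. Col6a1 was at 168 CPM (118 to 231) and 164.0 CPM (105.1 to 244) in fibroblasts and had no UMI in pericytes, endothelial cells, precursors, astrocytes or mature oligodendrocytes of either library. A count of 0 allows up to 7.35 and 11.6 CPM in pericytes and 2.47 and 4.2 CPM in endothelial cells. Col6a2, its partner chain, was at 81.5 CPM (48.3 to 129) and 137 CPM (83.5 to 211) in fibroblasts. Pericytes had 9 Col6a2 UMIs in DTRneg, 27.1% of the fibroblast level, and none in DTRpos. Col6a2 was also present at 2.20 and 1.30 CPM in mature oligodendrocytes, 75 and 28 UMIs. Col6a3, a further chain of type VI, reached a mean of 14.7 CPM in fibroblasts.

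Further fibroblast genes came from other structural groups. Col12a1, a fibril-associated collagen that bridges fibrils, was at 308 CPM (239 to 390) and 335 CPM (248 to 443) in fibroblasts, and the 5 highest cells held 41.2% and 65.3% of its UMIs. Col15a1, a multiplexin of the zone between basement membrane and connective tissue, was at 448 CPM (364 to 546) and 390 CPM (295 to 505) and had no UMI in pericytes. Its relative Col18a1, the source of endostatin, was at 81.5 CPM (48.3 to 129) and 82.0 CPM (42.4 to 143) in fibroblasts, with 11.5 and 17.1 CPM in precursors and 6.59 and 11.2 CPM in endothelial cells. Endothelial cells were also split by markers of arterial and venous cells, after seeing the data. The 41 and 29 cells on the arterial side held 8 of the 8 Col18a1 UMIs in DTRneg and 6 of 8 in DTRpos, a level of 86.1 and 92.4 CPM, and the 186 and 98 cells on the venous side held none. Col13a1, a transmembrane collagen of adhesion sites, was at 140.4 CPM (95.4 to 199) and 123 CPM (72.9 to 194) in fibroblasts and had no UMI in pericytes or endothelial cells. Col23a1, also transmembrane, was at 63.4 and 95.7 CPM, 14 UMIs each. Col26a1 was at 31.7 CPM (12.7 to 65.3) and 68.3 CPM (32.8 to 126), 7 and 10 UMIs.

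**Figure D4:**
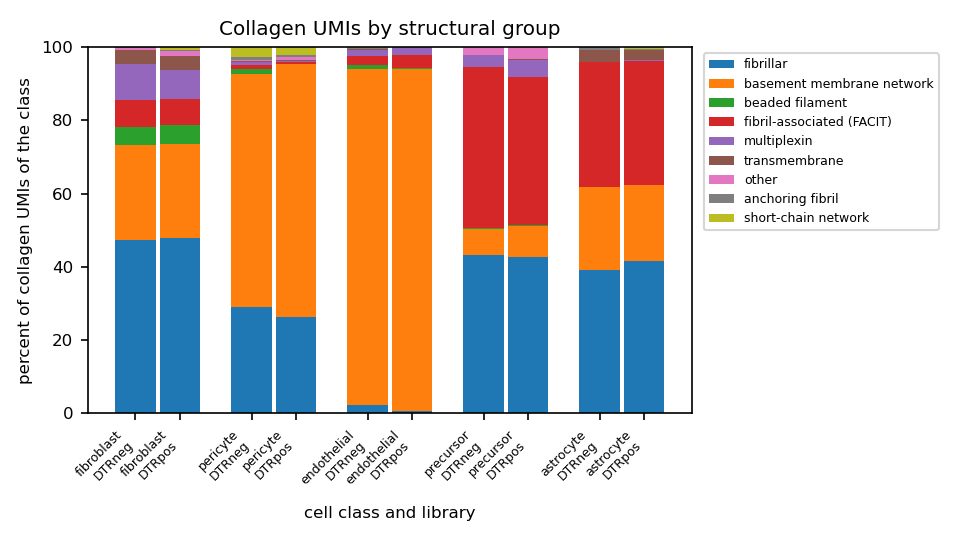
Percent of the collagen UMIs of each class that fell to each structural group, by library. Fibrillar genes gave 47.3% and 47.8% in fibroblasts and 29.0% and 26.3% in pericytes, and the basement membrane network gave 91.8% and 93.1% in endothelial cells.

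Summed over structural groups, each class had its own makeup and the libraries were close for the larger groups. Small groups could differ. Beaded filament genes had 10 UMIs in DTRneg and 0 in DTRpos pericytes. Short-chain network genes had 0 UMIs in DTRneg and 8 in DTRpos fibroblasts. Both of these ratio intervals excluded 0. In fibroblasts 47.3% of DTRneg and 47.8% of DTRpos collagen UMIs were fibrillar, 25.9% and 25.7% basement membrane network, 9.87% and 8.10% multiplexin, 7.17% and 6.92% fibril-associated and 5.06% and 5.28% beaded filament. In pericytes the basement membrane network made up 63.6% and 69.1% and fibrillar genes 29.0% and 26.3%. In endothelial cells the network made up 91.8% and 93.1% and fibrillar genes 2.23% and 0.763%. Precursors had 43.9% and 40.4% fibril-associated and 43.3% and 42.8% fibrillar UMIs, against 6.86% and 8.40% of the network.

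Precursors were led by Col9a3 and Col11a1. Col9a3, a chain of the fibril-associated type IX collagen known from cartilage, was at 131 CPM (119 to 143) in DTRneg and 112 CPM (101.5 to 122) in DTRpos precursors, and 47.0% and 36.5% of the cells had a UMI. Col11a1, a fibrillar chain that joins type IX on cartilage fibrils, was at 92.8 CPM (83.3 to 103) and 91.3 CPM (82.2 to 101.1). The partner genes were lower: Col11a2 was at 28.0 and 30.4 CPM and Col9a2 at 18.9 and 18.8 CPM in precursors. Col9a3 was not limited to this class. It was at 342.5 and 325 CPM in differentiating oligodendrocytes, 273 and 201 CPM in choroid plexus cells, 25.4 and 28.3 CPM in astrocytes and 23.8 and 21.8 CPM in mature oligodendrocytes. In fibroblasts it had a single UMI. Col11a1 was at 41 CPM in fibroblasts of both libraries, 9 and 6 UMIs, and had none in pericytes.

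No collagen reached 50 CPM in astrocytes. The highest were Col9a3 and then Col11a2 at 16.0 and 17.8 CPM, Col4a1 at 9.93 and 12.4 CPM and Col16a1 at 10.5 and 11.9 CPM. Col1a1 was at 7.73 CPM (5.13 to 11.2) and 10.5 CPM (7.37 to 14.4) in astrocytes, where Col1a2 was at 0.828 and 1.13 CPM. The ratio of Col1a1 to Col1a2 UMIs in astrocytes was 9.33 (2.88 to 48.0) and 9.25 (3.32 to 35.7), against 0.643 and 0.905 in fibroblasts. Its UMIs were spread over 28 and 36 astrocytes. The intervals of the 2 classes did not overlap in either library, and the DTRpos fibroblast interval of 0.717 to 1.14 held 1.

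The 25 members below 50 CPM were described by their highest class. Fibroblasts were highest for Col5a1, Col6a3, Col7a1, Col8a2, Col9a2, Col16a1, Col22a1 and Col25a1, at means of 3.42 to 27.3 CPM. Col8a2 had no UMI in the 63 DTRneg fibroblasts, which allows up to 13.6 CPM, and 8 UMIs, 54.7 CPM, in the 54 DTRpos fibroblasts. Pericytes were highest for Col4a3, Col4a4, Col5a3, Col8a1 and Col28a1. Endothelial cells were highest for Col14a1 (5.76 and 15.4 CPM) and Col6a6 (4.94 and 2.80 CPM). Precursors were highest for Col6a4, Col11a2, Col20a1 and Col24a1, and astrocytes for Col2a1, Col9a1 and Col10a1, each under 1 CPM. Col17a1 had no UMI in the 5 classes and 13 and 9 UMIs elsewhere.

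The DTRpos library was then set against the DTRneg library within each class. A difference was called by size alone: past 2-fold, at a mean of at least 50 CPM and at least 20 UMIs in both libraries together. In fibroblasts 0 of the 15 members that met this minimum were past 2-fold, against 7.91% of 3009 genes. Under 5 other settings 1 or 2 fibroblast members were past it, Col5a2 or Col4a6, at log2 ratios from 1.003 to 1.37. In pericytes it was 0 of 5 members, against 3.21% of 3392 genes, in endothelial cells 0 of 2, against 1.75% of 3256 genes, and in precursors 0 of 2, against 0.272% of 4043 genes. No member met the minimum in astrocytes, where 0.142% of 2814 genes were past 2-fold. Counts of 0 among so few members are near these background shares and are no result about collagen genes in particular. Col26a1 in fibroblasts was at 31.7 and 68.3 CPM, a log2 ratio of 1.11 (-0.43 to 2.74), but its 7 and 10 UMIs were under the minimum.

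The direction was mixed and small. Over the 15 fibroblast members the log2 ratio of DTRpos to DTRneg ran from -0.20 (Col15a1) to 0.94 (Col5a2), with a median of 0.12 and 10 above 0, against a median of 0.01 over all 3009 genes. Col5a2 (interval -0.30 to 2.22), Col4a6 at 0.87 (-0.23 to 2.01) and Col6a2 at 0.75 (-0.25 to 1.75) were the farthest from 0, each on 20 UMIs or fewer per library, and all 3 intervals held 0. Col1a1 was the only fibroblast member of the 15 whose interval excluded 0, at 0.35 (0.02 to 0.68), and it was at 0.02 once the 5 fibroblasts with the most collagen UMIs were left out of each library. In pericytes the ratios ran from -0.38 (Col3a1, -1.02 to 0.23) to 0.48 (Col27a1, -0.42 to 1.36), with a median of 0.04 against 0.02 over all genes. After thinning to 2000 UMIs per cell, which kept 93 and 31 pericytes, Col3a1 turned to 0.53 and Col1a2 from -0.18 to 0.63. Endothelial Col4a1 was at 0.19 (-0.07 to 0.44) and Col4a2 at 0.28 (-0.03 to 0.60), against a median of 0.04. In precursors Col9a3 was at -0.23 (-0.42 to -0.04) and Col11a1 at -0.02 (-0.24 to 0.19), against a median of 0.05.

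**Figure D5:**
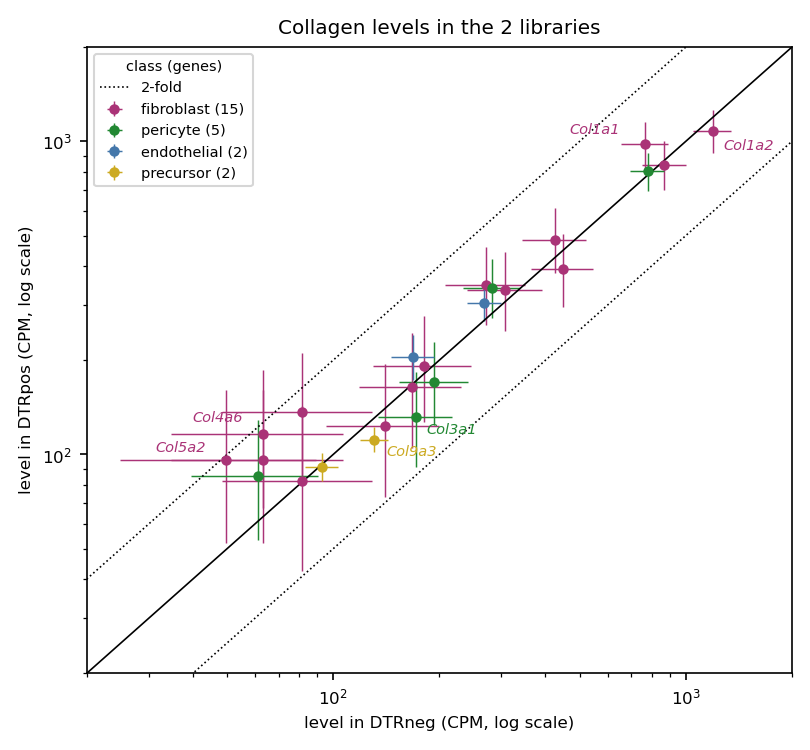
Level in DTRpos against level in DTRneg for pairs of gene and class with at least 50 CPM and 20 UMIs, on log axes, with exact 95% counting intervals. Dotted lines mark 2-fold. All points lie between them, although Col5a2 or Col4a6 passed them under 5 other settings, and the points farthest from the diagonal are fibroblast Col5a2, Col4a6 and Col6a2.

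The collagen total of each class was also close between libraries. Its log2 ratio was 0.12 (-0.01 to 0.25) in fibroblasts, -0.01 (-0.18 to 0.16) in pericytes, 0.20 (0.01 to 0.38) in endothelial cells, -0.05 (-0.16 to 0.05) in precursors and 0.13 (-0.07 to 0.33) in astrocytes. The fibroblast value was 0.41 among cells with at least 1000 detected genes and -0.026 without the 5 cells with the most collagen UMIs. The pericyte value was 0.46 after thinning to 2000 UMIs, where 31 DTRpos pericytes remained, and the endothelial value was -0.036 with cells weighted equally.

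Genes that make, cross-link or bind collagen were counted in the same classes. Of all 24868 genes with a UMI, 12.7% reached 50 CPM in fibroblasts, 13.6% in pericytes, 13.1% in endothelial cells, 16.3% in precursors and 11.3% in astrocytes. Of 20 genes for chain modification and folding, 11 reached it in fibroblasts, 7 in pericytes, 7 in endothelial cells, 5 in precursors and 6 in astrocytes. Serpinh1, the chaperone of procollagen in the endoplasmic reticulum also called Hsp47, was at 702 and 437 CPM in fibroblasts, 586 and 337 in pericytes and 192 and 113 in endothelial cells. P4hb, the shared subunit of prolyl 4-hydroxylase, was at 231 and 253 CPM in fibroblasts and 140 and 178 in pericytes. Ppib, cyclophilin B, was at 566 and 513 CPM in fibroblasts and 900.4 and 909 CPM in precursors, so it did not follow collagen levels. Of 13 genes for processing and cross-linking, 2 reached 50 CPM in fibroblasts: Pcolce, the enhancer of the procollagen C-proteinase, at 1232 and 1121 CPM, and Sparc, a collagen-binding matricellular protein, at 3047 and 2502 CPM. Pcolce was at 221 and 147 CPM in pericytes, and Sparc at 2769 and 2695 CPM there and 1950 and 2158 CPM in endothelial cells. No lysyl oxidase gene of the list reached 50 CPM.

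Among 15 basement membrane partners of type IV, 8 reached 50 CPM in fibroblasts, 8 in pericytes and 3 in endothelial cells. Nid1, the nidogen that links the laminin and type IV networks, was at 397 and 441 CPM in pericytes and 308 and 294 in fibroblasts. Lamc1, the common laminin gamma chain, was at 365 and 356 CPM in pericytes and 276 and 226 in fibroblasts. Lama1 reached 50 CPM in fibroblasts alone of the 5 classes (267 and 198 CPM), and Lama4 in pericytes alone (174.0 and 217 CPM). The endothelial genes were Agrn (95.5 and 140.0 CPM), Lamb2 (98 and 105 CPM) and Hspg2 (51.05 and 50.4 CPM). Of 10 receptor genes, 3 reached the level in fibroblasts and 3 in pericytes. Itga1, the alpha chain of the integrin that binds type IV, was at 1257 and 1146 CPM in pericytes, 247 and 298 in endothelial cells and 122 and 130 in fibroblasts. Its partner Itgb1 was at 838 and 883 CPM in pericytes. Of 11 genes for degradation and its inhibitors, 4 reached 50 CPM in fibroblasts, led by the inhibitor Timp3 at 1399 and 1428 CPM and followed by Timp2 (172 and 198 CPM) and the protease Ctsk (186 and 116 CPM).

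Between the libraries, 1 of the 28 pathway genes that met the minimum in fibroblasts was past 2-fold, against 7.91% of all genes. It was P3h3, a member of the prolyl 3-hydroxylase family, at 72.4 CPM in DTRneg and 34.2 in DTRpos (16 and 5 UMIs), with a log2 ratio of -1.08 (-2.89 to 0.43). In pericytes 0 of 22 were past 2-fold, against 3.21% of all genes, and in endothelial cells 0 of 14, against 1.75%. In precursors it was 0 of 10, against 0.272%, and in astrocytes 0 of 12, against 0.142%. Counts of 0 among so few genes are near these shares and are no result about pathway genes in particular. Serpinh1 was lower in DTRpos by less than 2-fold in every class where it passed 50 CPM. Its log2 ratio was -0.68 (-1.13 to -0.25) in fibroblasts, -0.80 (-1.17 to -0.44) in pericytes, -0.76 (-1.14 to -0.39) in endothelial cells and -0.47 (-0.69 to -0.25) in astrocytes, with intervals that excluded 0. It was also at -0.74 (-1.14 to -0.36) in mature oligodendrocytes, at 6.05 and 3.61 CPM, and at 0.05 (-0.65 to 0.75) in precursors. Serpinh1 is also a heat-shock gene. Of 8 other heat-shock genes, listed after these values were seen, 8 were lower in DTRpos in pericytes (a sum of 4987 against 3725 CPM), 5 in endothelial cells (5684 against 4632 CPM), 3 in fibroblasts (2613 against 2577 CPM), 3 in astrocytes (1401 against 1276 CPM), 5 in precursors (3504 against 3363 CPM) and 7 in mature oligodendrocytes (4574 against 4137 CPM). Of all genes at the minimum, 47.8%, 45.1%, 49.1%, 41.2%, 40.0% and 35.3% were lower in DTRpos in these classes, in the same order. The heat-shock genes were counted without that minimum, and some lay below it, such as Hspa1a and Hspa1b in astrocytes. The part of these genes in the Serpinh1 values was not tested.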

How the data were processed

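Single-cell RNA was measured in 1 DTRneg and 1 DTRpos library of hippocampal cells. The authors deposited, for each barcode, unnormalised UMI counts of every gene from Cell Ranger 6.1.0, per the file headers. The submitters' processing notes also name build mm10 and Seurat, with no role for either. The labels' protocols name a 3′ v2 kit. Other samples of the series were not used here.

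Barcodes needed 500 or more detected genes and a mitochondrial share below 15%, and doublets called by Scrublet (241 and 158 of 7105 and 5849 cells) were removed. Both libraries were clustered together with Scanpy 1.11.5 (2000 variable genes, 30 principal components, 15 neighbours, Leiden resolution 1), with collagen genes and the pathway lists left out of the variable genes so that their levels do not define the classes. No annotation by the authors was used here. Clusters were named from at least 3 markers raised 1.5-fold in at least 10% of cells, so names can differ from the study's. Counts were summed per class and library, with exact Poisson intervals for levels, exact binomial intervals for shares and exact conditional binomial intervals for ratios. The ratio intervals recovered known ratios in counts simulated from the Poisson model that they assume. That simulation had no clumping of UMIs in few cells, which the intervals do not cover. PCR and free RNA are not covered by the intervals either. Members, marker lists, pathway lists and the rule for naming genes (a mean of at least 50 CPM in 1 class; from each pathway list the highest 3 per vascular class and those past 2-fold) were chosen with earlier results of these data known. Of a count of 0, 3 counts were taken as the upper limit. Some single values are not reported here.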

Additional observations from a re-analysis of the deposited data

How the results depend on the processing

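Cells are few, so the depth limits fibroblasts most, and with 1 library per group no paired analysis was possible because no replicates exist. Across the alternatives, 13 of 291 levels and 7 of 315 ratios of single named genes left their main counting interval, as did 5 of 65 ratios of class totals. The cause was not tested. The fibroblast total, 5597 CPM as a mean of both libraries, was 6258 CPM with at least 1000 detected genes, 5049 with doublets kept, 6016 after thinning to 2000 UMIs and 4591 without the 5 cells with the most collagen UMIs; its log2 ratio was 0.41 with at least 1000 genes and -0.026 without those 5 cells. The pericyte total of 1786 CPM became 1949, 1582, 2105 and 1619 CPM in the same order, with a log2 ratio of 0.23 with at least 1000 genes and 0.46 after thinning. The endothelial total of 515 CPM was 466 with doublets kept and 576 with cells weighted equally, where the log2 ratio was -0.036. The precursor total of 378 CPM was 346 with doublets kept and 336.5 after subtraction of the mature oligodendrocyte level, and the astrocyte total of 116 CPM was 72.8 after that subtraction and 134 with a gate on marker UMIs. Members past 2-fold in fibroblasts were 0 of 15, but 2 with at least 1000 genes (Col4a6 and Col5a2, log2 ratios 1.37 and 1.29), 1 with cells weighted equally (Col5a2, 1.003), 1 without the 5 cells (Col4a6, 1.05), 1 with the gate (Col5a2, 1.04) and 1 without fibroblasts that held a pericyte-marker UMI (Col5a2, 1.10), a choice made after seeing the data, as were the splits by contractile genes, by Dcn or Lum and by astrocyte cluster. The log2 ratio of class shares between the libraries, near 0 for pericytes and -0.19 for endothelial cells, was -0.90 and -0.46 with at least 1000 genes, and -0.39 for endothelial cells when mature oligodendrocytes were left out of the total. Thinned pericytes gave log2 ratios of 0.63 for Col1a2 and 0.53 for Col3a1.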

Other observations

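Outside the vascular, precursor and astrocyte classes, collagen RNA was found in choroid plexus cells, the epithelium that makes cerebrospinal fluid. Their collagen total was 390 CPM (349.7 to 433) in DTRneg and 330.05 CPM (257 to 418) in DTRpos, from 204 and 49 cells. Col9a3 made up most of it, at 273 and 201 CPM, and Col8a1 was at 64.0 CPM in DTRneg and 38.3 CPM in DTRpos (57 and 8 UMIs). Col8a2, its partner in type VIII, was at 16.8 and 28.7 CPM (15 and 6 UMIs).

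Differentiating oligodendrocytes had a collagen total of 462 CPM (415 to 512) and 403 CPM (338 to 477), of which Col9a3 gave 342.5 and 325 CPM, and 64.1% and 60.5% of these cells had a Col9a3 UMI. In neuroblasts Col11a1 was at 30.5 CPM and 44.2 CPM (45 and 44 UMIs). Neural stem cell-like cells held Col9a3 at 97.9 and 64.3 CPM (47 and 17 UMIs).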
